A study of Mus musculus with 12 samples.

Results

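The 9 genes described here are the imprinted growth regulators Dlk1, Peg3, Mest, Plagl1, Ndn, Meg3, Cdkn1c, Grb10 and Phlda2, chosen by name with every probe set that the series' probe table assigns to them alone. They account for 9 of the 18193 genes and 35 of the 45101 probe sets measured. RNA came from mouse embryonic fibroblasts (MEFs) of strain C57BL/6, which are cultured connective tissue cells, on 12 Affymetrix arrays in 6 groups of 2 biological duplicates, and the study asked which binding of the transcription factor STAT5 goes with changed transcription. S5 MEFs lacked both Stat5 genes and carried a retroviral STAT5A vector, KO MEFs lacked both Stat5 genes, and WT MEFs were wild type. Cells of each genotype were either given growth hormone for 120 minutes or left untreated. The labels give no vehicle control and no KO group with an empty vector, and they do not say whether a genotype is 1 clone or pooled embryos. Genotype and cell preparation therefore cannot be told apart in any comparison between genotypes.

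Imprinted genes are transcribed mainly from the copy inherited from 1 parent, as set by DNA methylation laid down in the egg or sperm. In mice, paternally expressed members such as Dlk1, Peg3, Mest and Plagl1 are best known for roles in fetal growth and tissue differentiation. Maternally expressed members such as Cdkn1c, Grb10 and Phlda2 restrain the growth of the embryo or placenta, and Meg3 is a long non-coding RNA expressed from the maternal copy beside Dlk1. Many of these genes are active in embryonic mesenchyme, the tissue that MEFs come from. The arrays read total transcript and do not tell the parental copies apart.

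Values are deposited log2 levels, and a difference of 1 log2 unit is a 2-fold difference. Most silent probe sets on these arrays pile up at low values, so a level below 4 is taken as the low mode, in which differences are compressed. Where a group's mean lies there, it was raised to 4 and the fold is a lower bound, written "at least". Tests are limma's, fitted over all 18193 genes, with Benjamini-Hochberg adjusted p-values at a threshold of 0.05 and the probe set of highest mean level representing each gene. Levels of different genes or probe sets are not compared, since probes differ in brightness.

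The deleted genes followed their labels: the Stat5a probe set of WT MEFs stood at 2.38 in S5, 2.42 in KO and 11.87 in WT MEFs, and a second Stat5a probe set, at 9.09 and 9.88 in the S5 groups, lay between 2.22 and 2.35 elsewhere. Stat5b stood at 1.95, 1.96 and 9.19 in S5, KO and WT MEFs. The position of these probes within the deleted genes was not analysed here. Socs2, a STAT5 target, differed by 4.51 with growth hormone in S5, by 0.67 in KO and by 4.22 in WT MEFs. The 3′ minus 5′ difference of the Gapdh control probe sets, a sign of RNA length, was 1.52 ± 0.08 in S5, 1.04 ± 0.08 in KO and 1.02 ± 0.15 in WT MEFs (SD, n = 4 each). That of the Actb control probe sets was 3.09 ± 0.05, 2.96 ± 0.17 and 2.88 ± 0.25, and there the arrays of the genotypes overlapped. Array medians ranged from 2.86 to 3.02, and duplicates correlated across genes with r from 0.990 to 0.996. The 3 preparations differed widely outside the imprinted genes. Averaged over 16 macrophage and blood markers, the level per array was 3.01 to 3.26 in S5, 3.91 to 4.23 in KO and 8.65 to 10.19 in WT MEFs, and 13, 9 and 2 of the 16 lay in the low mode. The 12 fibroblast markers averaged 11.19 to 11.55, 12.74 to 12.84 and 13.24 to 13.41 per array, and went both ways, with 2 higher and 5 lower in S5 than in KO MEFs (median difference -0.02). Among them Thy1, a fibroblast surface protein, stood at 3.59 in S5 against 14.25 in KO and 14.16 in WT MEFs, whereas the collagen genes Col1a1 and Col1a2 were high in every group. The X-inactivation RNA Xist stood at 10.74, 10.50 and 2.78, and the Y-linked Eif2s3y at 2.20, 2.23 and 12.29, in S5, KO and WT MEFs, so the WT cells also differed in sex-linked transcripts. The part of these differences in the results below was not tested. In bulk RNA, fewer cells of a type and less RNA per cell cannot be told apart.

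Between S5 and KO MEFs, 8 of the 9 genes passed the test, where 37.2 percent of all genes did. Mest and Plagl1 were higher in S5 MEFs, where 20.3 percent of all genes were called higher. Dlk1, Peg3, Ndn, Cdkn1c, Grb10 and Meg3 were lower, where 16.9 percent of all genes were called lower. The Meg3 call was lost in 18 of 23 alternative analyses, and its other probe sets went both ways, as given below. The median absolute difference was 1.15 log2 units for the 9 genes and 0.16 for all genes, and 5 of the 9 differed by more than 1 unit, against 13.6 percent of all genes. All genes include 6571 of 18193 that lay in the low mode in all 6 groups, as only Phlda2 of the 9 did. Without them 6740 genes were called, beside 6762 of all. Shares and medians over all genes, here and below, are therefore not like for like with the 9. In 7 genes the 4 S5 arrays did not overlap the 4 KO arrays, as in 33.8 percent of all genes. The S5 arrays are also those with Thy1 near or in the low mode and the larger Gapdh difference, whose part in these counts was not tested.

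Between S5 and WT MEFs, 6 of the 9 passed, against 44.8 percent of all genes, and no S5 array overlapped a WT array in those 6, as in 40.3 percent of all genes. Without the 6571 genes that lay in the low mode in all groups, 8006 genes were still called, beside 8159 of all 18193. The 44.8 percent thus understates the share among genes with signal, and no excess of the 9 genes over those is shown. Mest and Plagl1 were again higher in S5 (24.7 percent of all genes were), and Dlk1, Peg3, Ndn and Grb10 lower (20.1 percent were). This comparison shares its S5 arrays with the one against KO MEFs. The median absolute difference was 0.72 for the 9 genes and 0.21 for all genes.

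Between KO and WT MEFs, 3 of the 9 passed, Cdkn1c upward and Plagl1 and Mest downward, and 38.2 percent of all genes did. That share lies near the one over all genes, silent ones included, and so does the median absolute difference, at 0.17 for the 9 genes and 0.17 for all genes. Without the genes that lay in the low mode in all groups, 6974 genes were called, so the share among genes with signal is larger. Between these preparations the macrophage and sex-linked markers moved too, with 15 of 16 macrophage markers lower in KO MEFs, and their part was not tested. The plot of values by array shows these patterns gene by gene.

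**Figure D1:**
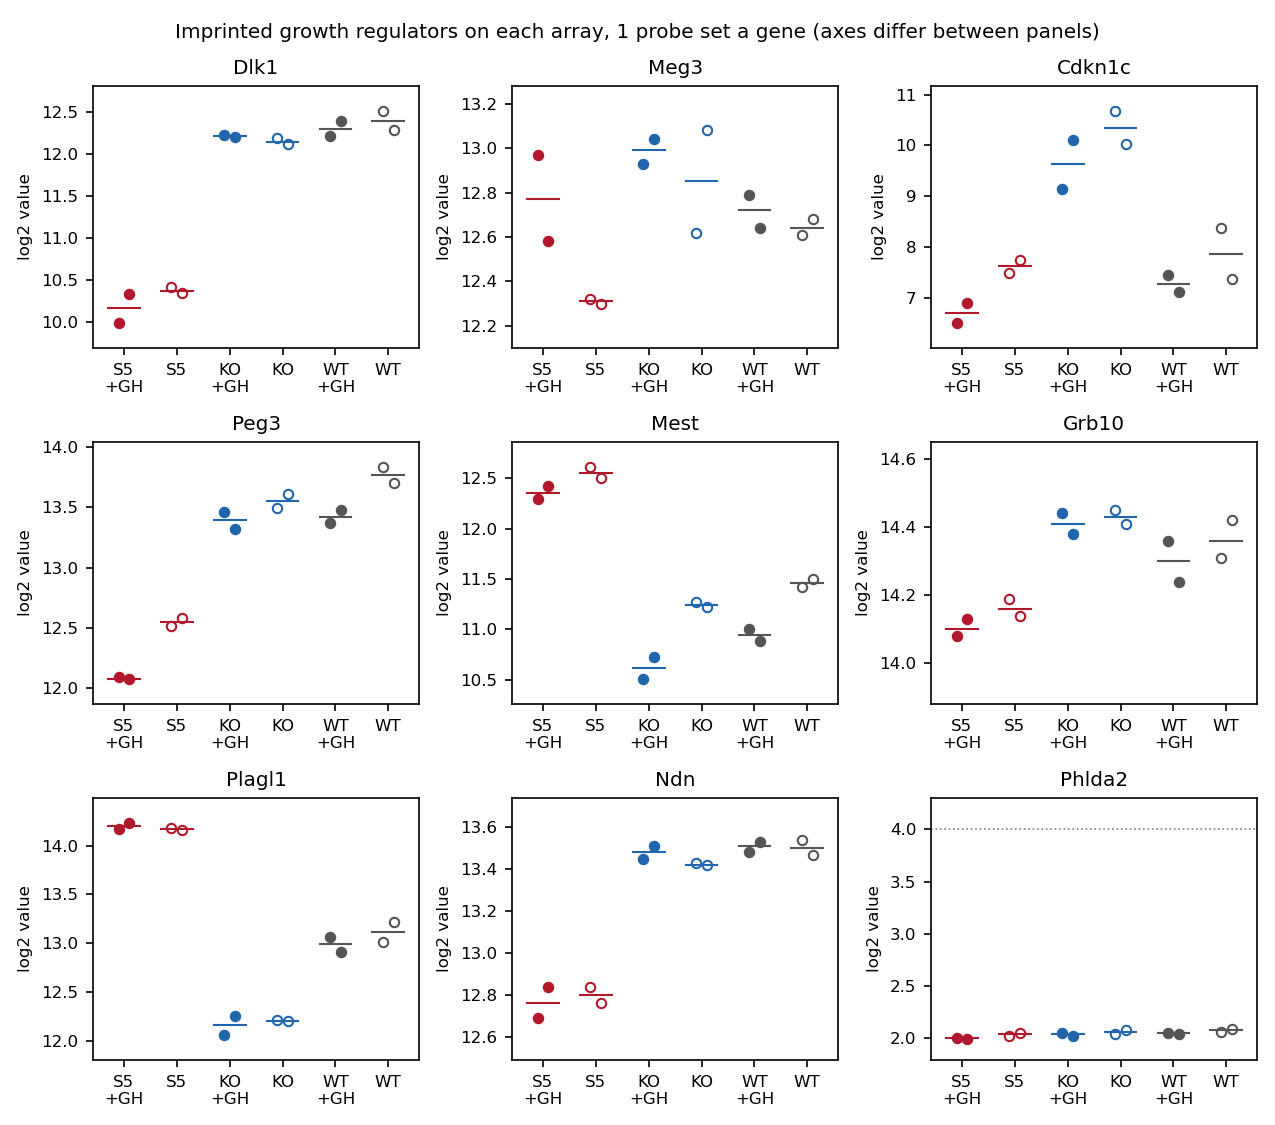
Log2 level of the representative probe set of each of the 9 genes on the 12 arrays, by genotype (S5, KO, WT) and treatment. Points are filled for growth hormone and open for untreated cells, with a bar at the mean of each group of 2 arrays. The S5 arrays stand apart from the KO arrays in every panel except those of Meg3, whose arrays overlap, and Phlda2, which lies below the dotted line at 4 on all 12 arrays.

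Among the paternally expressed genes, Dlk1 encodes a membrane protein with EGF-like repeats, related to Notch ligands, that keeps preadipocytes undifferentiated. It stood at 9.99 and 10.33 in hormone-treated S5 MEFs and at 10.41 and 10.34 in untreated S5 MEFs. KO MEFs had 12.23 and 12.20 with the hormone and 12.19 and 12.12 without. WT MEFs had 12.22 and 12.39 with it and 12.51 and 12.29 without. The S5 arrays were thus all low, and the KO and WT arrays formed 1 overlapping band. S5 minus KO was -1.92 (SE 0.09), a 3.78-fold lower level (adjusted p = 2e-06). S5 minus WT was -2.08 (SE 0.09, 4.24-fold, adjusted p = 1.24e-06). KO minus WT was -0.17 (adjusted p = 0.196). The other Dlk1 probe set, in the low mode on 3 of the 4 S5 arrays, ran the same way, with S5 at least 1.69-fold below KO (adjusted p = 0.00669 over all probe sets) and at least 2.23-fold below WT MEFs (0.00151).

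Peg3, a zinc finger protein linked in mice to maternal care and fetal growth, had the same order. It stood at 12.09 and 12.08 in hormone-treated S5 MEFs and at 12.52 and 12.58 without. KO MEFs had 13.46 and 13.32 with the hormone and 13.49 and 13.61 without, and WT MEFs had 13.37 and 13.48 with it and 13.83 and 13.70 without. All S5 values were lower than all others, and within each genotype both treated arrays were below both untreated ones. S5 minus KO was -1.15 (SE 0.05, 2.22-fold lower, adjusted p = 2.27e-06), and S5 minus WT was -1.28 (SE 0.05, 2.43-fold, adjusted p = 1.25e-06). The other 2 probe sets with signal gave -2.05 and -3.54 for S5 minus KO. On the last of these, S5 MEFs with the hormone had 3.85 and 3.42, in the low mode, and untreated S5 MEFs had 5.53 and 5.78, against 7.81 to 8.54 on the KO arrays, at least 10.3-fold lower in S5. The direction was shared by the 3 probe sets with signal, and the size was not.

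Ndn encodes necdin, a MAGE family protein that restrains cell division in neurons. Its brightest probe set stood at 12.69 and 12.84 in hormone-treated S5 MEFs and at 12.84 and 12.76 without. KO arrays lay between 13.42 and 13.51 and WT arrays between 13.47 and 13.54. S5 MEFs were lower than both by a small and tight margin, with S5 minus KO at -0.67 (SE 0.04, 1.59-fold lower, adjusted p = 1.29e-05) and S5 minus WT at -0.72 (SE 0.04, 1.65-fold, adjusted p = 7.51e-06). The 4 other Ndn probe sets with signal gave larger differences, from -1.27 to -1.91 for S5 minus KO, all called. On the one with the largest difference, S5 arrays lay between 9.36 and 9.72, KO arrays between 11.11 and 11.67 and WT arrays between 11.52 and 12.02.

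Mest, also called Peg1, encodes a hydrolase-like protein of mesoderm and adipose tissue, and it ran in the other direction. It stood at 12.30 and 12.42 in hormone-treated S5 MEFs and at 12.61 and 12.50 without. KO MEFs had 10.51 and 10.73 with the hormone and 11.27 and 11.22 without, and WT MEFs had 11.00 and 10.88 with it and 11.42 and 11.50 without. S5 arrays were highest throughout, and KO and WT arrays overlapped. S5 minus KO was 1.53 (SE 0.06, 2.88-fold higher, adjusted p = 1.07e-06), and S5 minus WT was 1.26 (SE 0.06, 2.39-fold, adjusted p = 2.87e-06). KO minus WT was -0.27 (SE 0.06, 1.20-fold lower, adjusted p = 0.0101). By treatment it was -0.32 with the hormone (SE 0.09, adjusted p = 0.0274) and -0.22 without (SE 0.09, adjusted p = 0.114). The difference between these, -0.10 (SE 0.12), did not pass.

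Plagl1, also called Zac1, encodes a zinc finger transcription factor that acts on other imprinted genes in the mouse embryo and can halt the cell cycle. It separated all 3 genotypes. On its brightest probe set the S5 arrays lay at 14.17 and 14.23 with growth hormone and at 14.18 and 14.16 without. KO arrays lay at 12.06 and 12.25 with it and at 12.21 and 12.20 without, and WT arrays at 13.06 and 12.91 with it and at 13.01 and 13.22 without. S5 MEFs were highest, WT MEFs intermediate and KO MEFs lowest, with no overlap. S5 minus KO was 2.0 (SE 0.06, 4.01-fold higher, adjusted p = 3.34e-07), S5 minus WT was 1.14 (SE 0.06, 2.20-fold, adjusted p = 6.18e-06), and KO minus WT was -0.87 (SE 0.06, 1.83-fold lower, adjusted p = 3.8e-05). A dimmer probe set kept this order with a wider spread, at 9.12 ± 0.21 in S5, 4.46 ± 0.27 in KO and 6.29 ± 0.33 in WT MEFs (SD, n = 4 each). The last Plagl1 probe set had signal in S5 MEFs alone, at 6.77, 6.85, 6.57 and 6.33, and lay between 1.93 and 2.18 on the 8 KO and WT arrays. S5 MEFs were at least 6.19-fold higher there than KO MEFs and than WT MEFs (adjusted p = 1.62e-08 and 1.58e-08 over all probe sets). So the brightest and the last probe set differ in where they put WT MEFs.

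The plot of genotype differences sets the 9 genes side by side.

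**Figure D2:**
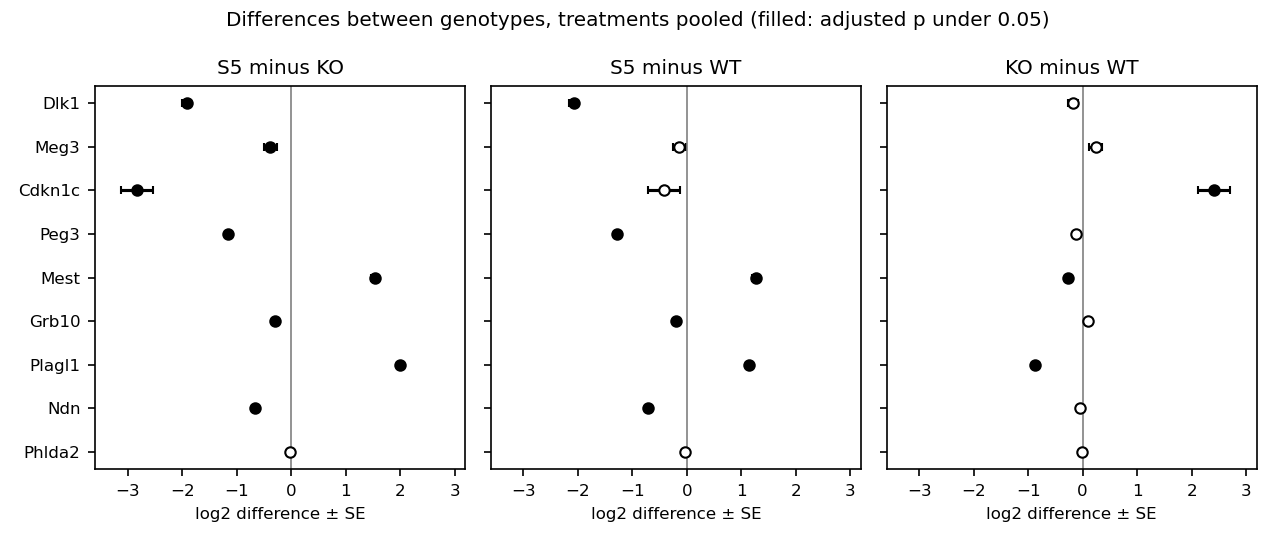
Log2 differences S5 minus KO, S5 minus WT and KO minus WT for the representative probe set of each gene, 4 arrays against 4, with bars of 1 SE and filled points where limma's adjusted p was below 0.05. Mest and Plagl1 lie right of 0 and Dlk1, Peg3 and Ndn left of 0 in both comparisons of S5 MEFs, whereas Cdkn1c lies far from 0 where KO MEFs are 1 side of the comparison.

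The start regions of the paternally expressed genes that differed by more than 1 log2 unit are shown because imprinting marks are laid on CG dinucleotides, written in capitals. Each is the 250 bases before a RefSeq transcript start in build GRCm38.p6, printed 5′ to 3′ on the gene's own strand, and for genes with several windows the one with most CG. They lie at chr12:109452573-109452822 on the plus strand for Dlk1, chr7:6730420-6730669 on the minus strand for Peg3, chr6:30737800-30738049 on the plus strand for Mest and chr10:13090582-13090831 on the plus strand for Plagl1.
Dlk1: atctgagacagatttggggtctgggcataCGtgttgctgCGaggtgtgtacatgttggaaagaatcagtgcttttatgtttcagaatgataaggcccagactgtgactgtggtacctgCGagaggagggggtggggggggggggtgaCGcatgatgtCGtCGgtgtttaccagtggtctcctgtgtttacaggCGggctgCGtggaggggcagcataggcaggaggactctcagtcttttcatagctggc
Peg3: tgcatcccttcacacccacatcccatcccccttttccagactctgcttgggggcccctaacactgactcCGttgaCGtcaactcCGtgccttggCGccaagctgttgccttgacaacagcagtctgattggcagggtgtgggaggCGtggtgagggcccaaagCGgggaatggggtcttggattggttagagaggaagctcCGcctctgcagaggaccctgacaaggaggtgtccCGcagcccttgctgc
Mest: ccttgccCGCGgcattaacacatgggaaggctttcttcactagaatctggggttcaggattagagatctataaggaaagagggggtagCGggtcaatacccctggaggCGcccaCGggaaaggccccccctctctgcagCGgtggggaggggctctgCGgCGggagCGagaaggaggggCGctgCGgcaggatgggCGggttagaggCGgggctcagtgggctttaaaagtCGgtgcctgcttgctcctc
Plagl1: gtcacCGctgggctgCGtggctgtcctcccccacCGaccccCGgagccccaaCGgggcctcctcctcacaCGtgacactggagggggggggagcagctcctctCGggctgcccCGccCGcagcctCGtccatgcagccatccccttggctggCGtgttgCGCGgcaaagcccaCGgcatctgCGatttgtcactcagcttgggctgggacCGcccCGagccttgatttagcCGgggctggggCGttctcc

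These windows hold 8 CG for Dlk1, 8 for Peg3, 14 for Mest and 19 for Plagl1, and the median over the 32851 mouse windows of the same table is 6. Other Mest windows hold 14 and 7 CG. The 9-letter motif TTCNNNGAA, the palindromic core that STAT factors read, whose match on 1 strand is also a match on the other, was found in 0 of the 12 windows of 8 of the 9 genes and in 7.02 percent of all windows. The 1 window of Cish, a known STAT5 target, holds 0 as well. Cdkn1c was not among the windows used. Methylation, STAT5 binding and whether any of these windows holds an imprinting mark were not analysed here.

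Among the maternally expressed genes, Cdkn1c encodes p57Kip2, an inhibitor of cyclin-dependent kinases that drives cells out of the cycle. It stood at 6.51 and 6.89 in hormone-treated S5 MEFs and at 7.49 and 7.75 without. KO MEFs had 9.15 and 10.10 with the hormone and 10.67 and 10.03 without, and WT MEFs had 7.45 and 7.12 with it and 8.38 and 7.36 without. KO arrays were high, while S5 and WT arrays overlapped. S5 minus KO was -2.83 (SE 0.30, 7.10-fold lower, adjusted p = 0.000233), and KO minus WT was 2.41 (SE 0.30, 5.32-fold higher, adjusted p = 0.000576). S5 minus WT was -0.42 (SE 0.30) and did not pass (adjusted p = 0.313). Of the 9 genes, Cdkn1c had the largest KO minus WT difference. Its arrays were also the least tight, with SDs of 0.56, 0.63 and 0.55 in S5, KO and WT MEFs (n = 4 each), treated and untreated arrays together. The 15 proliferation genes, which cycling cells express, averaged 9.71 to 10.01 per array in S5, 8.89 to 9.12 in KO and 11.22 to 11.30 in WT MEFs, so they were lowest where Cdkn1c was highest. The part of that difference in the Cdkn1c result was not tested.

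Grb10, an adaptor protein that binds the insulin and IGF1 receptors and dampens their signal, lay in a narrow and bright range. S5 arrays stood between 14.08 and 14.19, KO arrays between 14.38 and 14.45 and WT arrays between 14.24 and 14.42. S5 MEFs were lower than KO MEFs by a small amount, -0.29 (SE 0.04, 1.22-fold lower, adjusted p = 0.000903), and lower than WT MEFs by -0.20 (SE 0.04, 1.15-fold, adjusted p = 0.00482). KO minus WT was 0.09 (adjusted p = 0.128). The other 2 Grb10 probe sets lay in or near the low mode, with values between 2.12 and 4.24. When the probe sets were averaged, S5 minus WT turned to 0.14 (adjusted p = 0.0917), so the direction for Grb10 rests on the bright probe set.

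Meg3 had 11 probe sets, 9 of them with signal, and they did not move together. The brightest stood at 12.97 and 12.58 in hormone-treated S5 MEFs and at 12.32 and 12.30 without, against 12.93 and 13.04 with it and 12.62 and 13.08 without in KO MEFs. WT arrays lay between 12.61 and 12.79. The S5 and KO arrays overlapped, and S5 minus KO was -0.38 (SE 0.12, 1.30-fold lower, adjusted p = 0.0434), a call that was lost in 18 of 23 alternative analyses. Leaving out 1 array ended it in all but 2 of 12 cases, at -0.26 without untreated KO replicate 2 (adjusted p = 0.0997) and -0.28 without treated S5 replicate 2 (0.121), for example. On other Meg3 probe sets S5 minus KO was called lower at -0.82, -0.61 and -0.88 and called higher at 1.09 and 1.36. Another was called lower at -1.55, but its 4 S5 arrays and 10 of its 12 arrays lie in the low mode, and with the low groups raised to 4 the difference is -0.08. The remaining 3, the brightest among them in the fit over all probe sets, did not pass. On the probe set at 1.36, S5 MEFs had 7.25, 6.06, 5.41 and 4.16, against 4.20, 5.17, 3.75 and 4.35 in KO MEFs and 4.03 to 4.22 in WT MEFs. No single direction can be given for Meg3. Which part of the transcript each probe set reads was not analysed here. S5 minus WT (-0.14, adjusted p = 0.389) and KO minus WT (0.24, adjusted p = 0.181) did not pass on the brightest probe set. Elsewhere S5 minus WT was called lower at -0.44 and higher at 1.03, 0.81 and 1.59 (limma adjusted p = 0.0274, 0.0103, 0.0415 and 0.0141 over all probe sets). KO minus WT was called higher at 0.8 on another probe set (limma adjusted p = 0.03 over all probe sets). The remaining probe sets with signal did not pass in these comparisons.

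**Figure D3:**
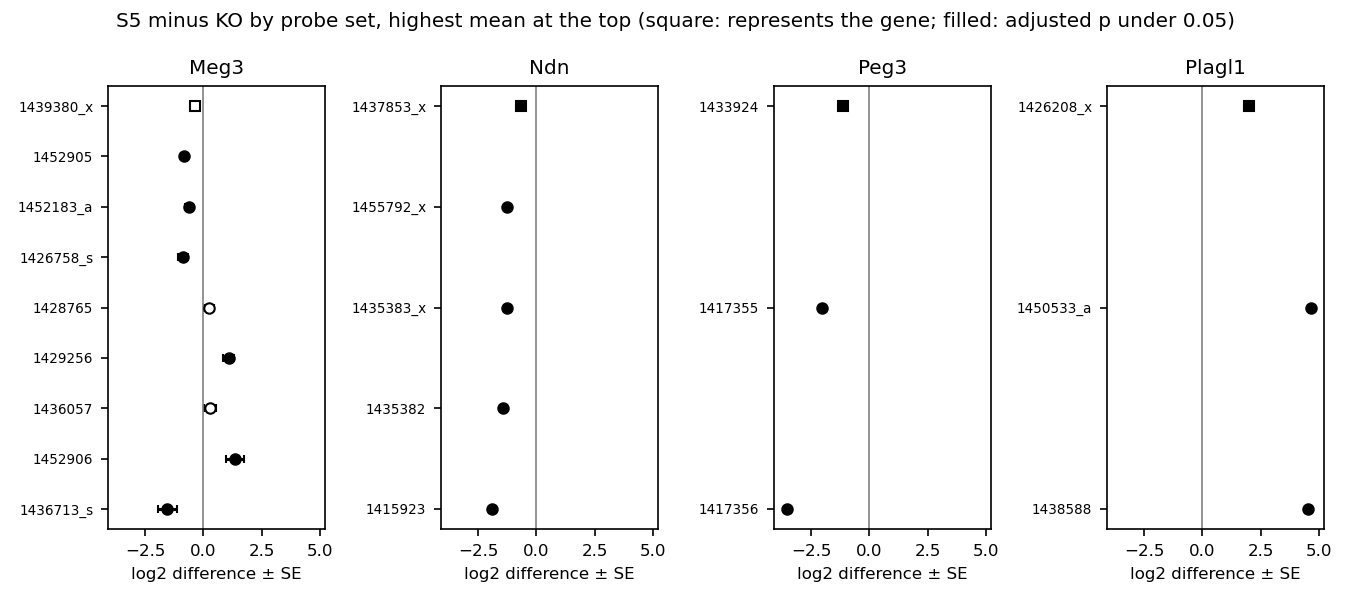
Log2 difference S5 minus KO for each probe set of Meg3, Ndn, Peg3 and Plagl1 with signal in at least 1 group, with bars of 1 SE and a square for the representative probe set. All Ndn and Peg3 points lie below 0 and all Plagl1 points above it, while those of Meg3 lie on both sides of 0. The lowest Meg3 point, at -1.55, comes from a probe set whose S5 arrays are in the low mode, and the others run from -0.88 to 1.36.

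Phlda2, a PH domain protein that restrains placental growth, lay between 1.99 and 2.09 on all 12 arrays, in the low mode, and no fold is given for it. Adjusted p-values were 0.326 for S5 minus KO, 0.161 for S5 minus WT and 0.809 for KO minus WT.

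Differences between genotypes were measured in treated and untreated cells separately as well. S5 minus KO for Dlk1 was -2.05 with growth hormone and -1.78 without, for Plagl1 2.04 and 1.97, and for Cdkn1c -2.93 and -2.73. For Mest it was 1.74 with the hormone and 1.31 without, for Peg3 -1.30 and -1.0, and for Ndn -0.72 and -0.62. Each of these 6 genes kept its direction in both treatments.

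Across the 12 arrays, Dlk1 and Ndn had nearly the same profile (Pearson r = 0.996), and Peg3 correlated with Dlk1 at 0.967 and with Ndn at 0.947. Mest and Plagl1 correlated at 0.915, and Dlk1 ran against them at -0.897 and -0.861. Dlk1 and Meg3, which lie next to each other, correlated at 0.387. These values describe 12 points that share 3 preparations and fall into clusters by genotype. Among 11164 genes with signal, those most like Dlk1 were Map1a (0.997), Ndn and Adam23 (0.996 each), and those most like Plagl1 were Tfap2b (0.998), Rspo3 (0.997) and Tial1 (0.995). For Peg3 they were Zfp982 (0.992), Ermp1 (0.991) and Foxc1 (0.988), and for Mest Syt11 (0.985), Phyh (0.984) and Nampt (0.981). For Cdkn1c they were Clmp (0.983), Ppt1 (0.979) and Tinag (0.973). The nearest for Ndn were Map1a (0.997), Dlk1 and Medag (0.995), and for Grb10 Rbms3 (0.967), Mtch2 and Gng2 (0.965 each). Meg3 had no neighbour above 0.904, which was Tmem199, followed by Syvn1 (0.886) and Sox13 (0.867).

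Growth hormone for 120 minutes moved few of the 9 genes. In S5 MEFs 1 passed, Peg3, where 7.88 percent of all genes passed and 4.25 percent were called lower. In KO MEFs 1 passed, Mest, where 0.308 percent passed and 0.0824 percent were called lower. In WT MEFs 2 passed, Mest and Peg3, where 6 percent passed and 2.94 percent were called lower. All 4 calls were decreases of less than 1 log2 unit. Peg3 fell by 0.46 in S5 MEFs (SE 0.07, 1.38-fold, adjusted p = 0.013) and by 0.34 in WT MEFs (SE 0.07, 1.27-fold, adjusted p = 0.0434), and was -0.16 in KO MEFs (adjusted p = 0.556). Mest fell by 0.62 in KO MEFs (SE 0.09, 1.54-fold, adjusted p = 0.0482) and by 0.52 in WT MEFs (SE 0.09, 1.43-fold, adjusted p = 0.0158), and was -0.19 in S5 MEFs (adjusted p = 0.281). Treated and untreated arrays did not overlap in any of these 4 calls, but with 2 arrays against 2 they did not overlap in 62.5 percent of all genes in S5, 26 percent in KO and 59.8 percent in WT MEFs either. In WT MEFs the 16 macrophage and blood markers averaged 10.18 and 10.19 on treated and 8.65 and 10.06 on untreated arrays. Their part in the WT hormone results was not tested.

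The 4 calls lie near the threshold, and all were lost in some alternative. Peg3 in S5 MEFs was lost without treated S5 replicate 1 (adjusted p = 0.0683), untreated S5 replicate 1 (0.0529) or untreated S5 replicate 2 (0.0854). Mest in KO MEFs was lost in 17 of 21 alternatives and Peg3 in WT MEFs in 14 of 21, including each one that left out a WT array (adjusted p from 0.0601 to 0.18). Leaving out 1 array ended the Mest call in 11 of 12 cases, at adjusted p up to 0.148. With the replicate number as a block, Mest in KO MEFs (adjusted p = 0.0964) and Peg3 in WT MEFs (0.0756) were not called. Mest in WT MEFs was lost when only the groups compared were fitted (0.0798) and without treated or untreated WT replicate 2 (0.0933 and 0.0796). On its dimmest probe set with signal, Peg3 fell by 2.03 with the hormone in S5 MEFs, at least 3.16-fold (adjusted p = 0.00165 over all probe sets).

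Cdkn1c had differences of -0.92 in S5, -0.73 in KO and -0.59 in WT MEFs with the hormone, and none passed (adjusted p = 0.296, 0.743 and 0.492). Meg3 on its brightest probe set was 0.46 in S5 MEFs (adjusted p = 0.173), and Dlk1 was -0.21 there (adjusted p = 0.419).

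Whether the hormone's effect differed between genotypes was tested as the difference of 2 effects. Of the 9 genes 0 passed in S5 against KO, S5 against WT or KO against WT MEFs, where 1.13, 2.92 and 1.27 percent of all genes passed in limma. At an unadjusted p below 0.05 the counts were 2, 1 and 0. These were Mest at 0.43 (limma adjusted p = 0.21) and Peg3 at -0.30 (limma adjusted p = 0.366) in S5 against KO MEFs, and Mest at 0.33 (limma adjusted p = 0.269) in S5 against WT MEFs. On the dimmest Peg3 probe set with signal the difference was called, at -1.59 in S5 against KO MEFs and -1.67 in S5 against WT MEFs (limma adjusted p = 0.0459 and 0.0238 over all probe sets), or -1.22 and -1.31 with the treated S5 group raised to 4. A lack of STAT5-dependent change is not shown by the p-values that missed the threshold.

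**Figure D4:**
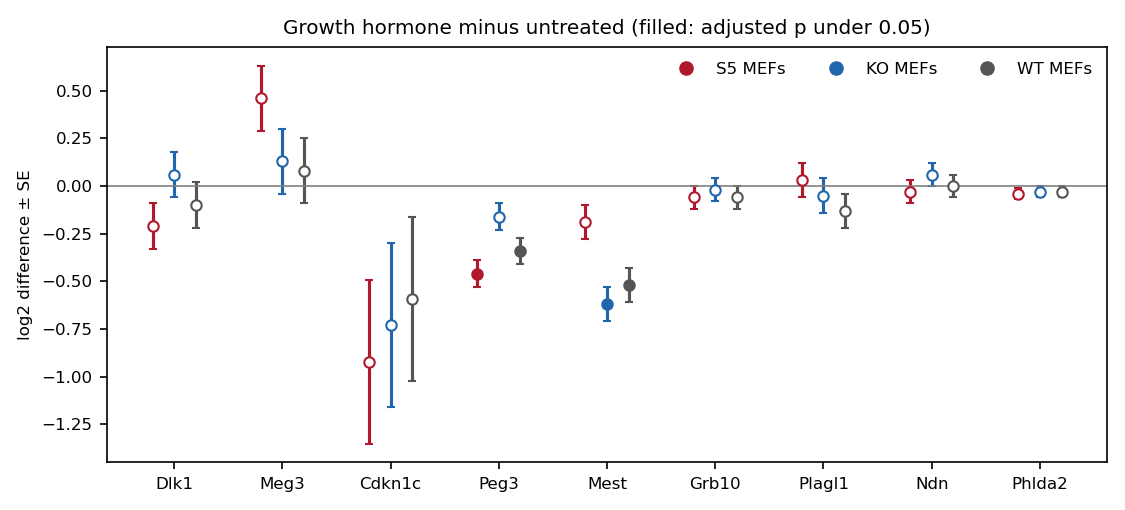
Log2 difference between cells with growth hormone and untreated cells in S5, KO and WT MEFs for each gene, 2 arrays against 2, with bars of 1 SE and filled points where limma's adjusted p was below 0.05. The filled points are Peg3 in S5 and WT MEFs and Mest in KO and WT MEFs, all below 0.

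Other imprinted genes were counted from a list of 40, of which 34 were measured and 9 lay in the low mode in all groups. Between S5 and KO MEFs 6 of the 34 were higher and 12 lower, with a median difference of -0.11, where 37.2 percent of all genes were called. Between S5 and WT MEFs 3 were higher and 13 lower (median -0.27, 44.8 percent of all genes called). Between KO and WT MEFs 5 were higher and 11 lower (median -0.04, 38.2 percent of all genes called). Growth hormone moved 3 downward in S5 MEFs, 0 in KO MEFs and 1 upward in WT MEFs, the last in the low mode, where 7.88, 0.308 and 6 percent of all genes passed. The 3 in S5 MEFs were Igf2r at -0.24, Rian at -0.41 and Slc38a4 at -1.11 (limma adjusted p = 0.0144, 0.0152 and 0.0216).

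Igf2, the fetal insulin-like growth factor, stood at 7.05 ± 0.15 in S5, 2.68 ± 0.30 in KO and 13.36 ± 0.11 in WT MEFs (SD, n = 4 each). It was at least 657-fold lower in KO than in WT MEFs (adjusted p = 8.57e-09) and at least 8.28-fold higher in S5 than in KO MEFs (4.18e-07), and S5 MEFs stayed 79.2-fold below WT MEFs (6.34e-08). Zdbf2, a zinc finger gene, stood at 2.35 in S5 against 9.02 in KO and 9.96 in WT MEFs, at least 32.4-fold lower in S5 than in KO (adjusted p = 4.17e-08). Nap1l5, related to histone chaperones, stood at 2.55 in S5 against 6.98 in KO and 9.27 in WT MEFs, at least 7.89-fold lower in S5 than in KO (1.54e-06). Nnat, which encodes the small membrane protein neuronatin, stood at 2.16 in S5 MEFs, against 4.87 in KO and 6.11 in WT MEFs. In these 3 genes the S5 level was in the low mode. Peg10, a retrotransposon-derived gene needed for the mouse placenta, ran the other way, at 9.31 ± 0.24 in S5 against 7.28 ± 0.32 in KO and 7.46 ± 0.23 in WT MEFs (S5 minus KO 4.09-fold higher, adjusted p = 0.000117). Ppp1r9a stood at 9.09, 6.37 and 6.41 in S5, KO and WT MEFs (S5 minus KO 6.60-fold higher, adjusted p = 1.6e-05). Sgce and Casd1 of the same list differed less, at 10.43, 10.81 and 10.47 and at 11.84, 11.65 and 11.70 in S5, KO and WT MEFs. Dcn, the matrix protein decorin, which is imprinted in mouse placenta, was 8.17-fold lower in S5 than in KO MEFs (adjusted p = 7.35e-06).

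**Figure D5:**
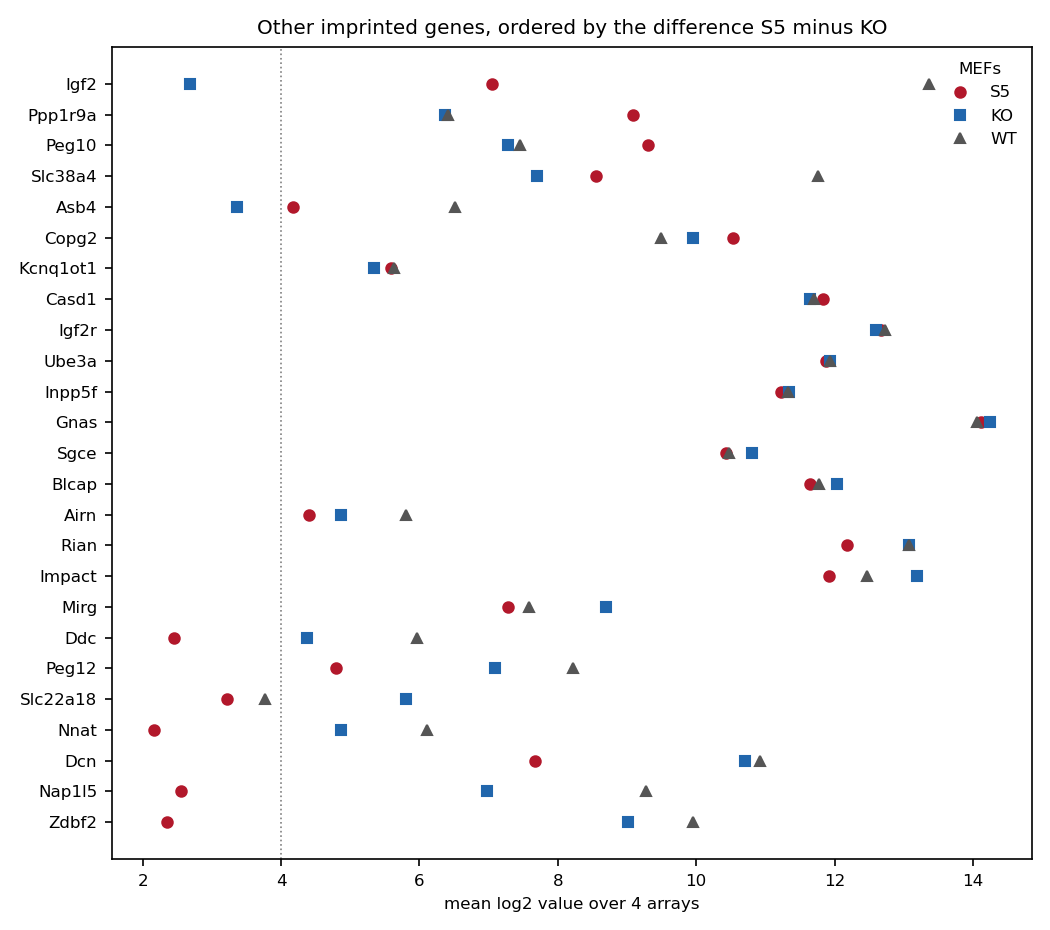
Mean log2 level in S5, KO and WT MEFs (4 arrays each) of the 25 other imprinted genes with signal in at least 1 group, ordered by S5 minus KO, with the dotted line at 4 marking the low mode. Zdbf2, Nap1l5 and Nnat have their S5 point below the line, and Igf2 has its KO point there.

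Genes lying near the 9 in the genome were examined whatever their values. Beside Dlk1 and Meg3, the non-coding RNAs Rian and Mirg were lower in S5 than in KO MEFs (-0.89, adjusted p = 5.91e-06, and -1.42, adjusted p = 0.00547), while Wdr25 (0.71) and Ppp2r5c (0.30) were higher. Near Cdkn1c and Phlda2, Slc22a18, a membrane transporter, followed Cdkn1c, at 3.22 ± 0.87 in S5, 5.80 ± 0.41 in KO and 3.77 ± 0.01 in WT MEFs (SD, n = 4 each). KO MEFs were at least 3.48-fold higher in Slc22a18 than WT MEFs (adjusted p = 0.00286), and S5 MEFs at least 3.48-fold lower than KO MEFs (0.000843). In that cluster Osbpl5 was lower in S5 than in KO MEFs by -1.14 and Tssc4 higher by 0.67, and Kcnq1ot1, the non-coding RNA that silences the cluster on the paternal copy, was 0.26 (adjusted p = 0.616). Nap1l4 at 0.10 and Cd81 at -0.01 did not pass either, and Kcnq1, Ascl2, Trpm5 and Tspan32 were in the low mode.

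Around Mest, Copg2 (0.58, adjusted p = 0.00736), Cep41 (1.0, adjusted p = 1.93e-05) and Cpa4 were higher in S5 than in KO MEFs, as Mest was, and Klf14 and Tsga13 were in the low mode. Cpa4, a carboxypeptidase, stood at 7.83 in S5, 2.79 in KO and 4.26 in WT MEFs, at least 14.2-fold higher in S5 than in KO (adjusted p = 9.35e-07). Near Plagl1, Ltv1 (0.75) and Utrn (0.40) were higher in S5 than in KO MEFs, and Phactr2 (0.33) and Sf3b5 (0.26) did not pass. Near Ndn, Peg12 (-2.29, adjusted p = 0.000458) and Atp10a (-1.93, adjusted p = 2.1e-06) were lower in S5, as Ndn was, Ube3a was -0.05 (adjusted p = 0.374), and Magel2, Mkrn3 and Snrpn were in the low mode. Near Peg3, Clcn4 was higher in S5 by 0.27 (adjusted p = 0.0132), opposite to Peg3, and Usp29, Zim1 and Zfp773 were in the low mode. Near Grb10, Ddc was lower in S5, at 2.45 against 4.37 in KO MEFs (at least 1.29-fold), and Cobl (-0.18) and Fignl1 (0.17) did not pass. Zpbp was in the low mode, and Ikzf1, a transcription factor of blood cells, stood at 2.13 in S5, 2.15 in KO and 6.86 in WT MEFs, as the macrophage and blood markers were also highest in WT MEFs.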

How the data were processed

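RNA of 12 cultures was measured on Affymetrix arrays. The values deposited by the authors were read as log2 expression levels. GCOS and RMA are the tools listed per the submitters' processing notes, with no settings, and no label states the log base, which was taken from the range of 0.99 to 15.95. No build is named with the arrays.

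Of the 45101 probe sets, 64 were controls, 932 matched more than 1 gene and 9160 matched no gene. These were not used, and 34945 probe sets covered 18193 genes. RefSeq (GRCm38.p6) held 18032 of these symbols and renamed 0. The brightest probe set on average represented its gene, and probe sets were also fitted on their own. A bound of 4 marked the low mode, in which 6571 genes lay in all 6 groups.

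A linear model in limma 3.58.1 (R 4.3.3) with 6 group means left 6 residual degrees of freedom, and eBayes added 1.2 prior degrees of freedom. Genotype comparisons average the treated and untreated differences (4 arrays against 4). P-values of limma are two-sided and adjusted by Benjamini-Hochberg over all genes at 0.05. SEs are those of the model, SDs lie between arrays, and having few arrays limits the precision. The duplicates are biological per the series' design text, with no word on separate embryos, so p-values measure the spread between these cultures.

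The 9 genes, the lists and the low-mode bound were chosen with earlier results of these data known. The text names all 9 genes, for each list and comparison the 6 genes or fewer with the lowest adjusted p, genes near the 9 whatever their values, and the 3 genes with the highest correlation to each. Peg10, Ppp1r9a, Sgce, Casd1, Dcn and Col1a2 lie outside this rule and were chosen after their values were seen. The fit was tested on simulated data. Same-numbered arrays did not pair: over 15 pairs of groups their deviations correlated from -0.363 to 0.197, with 1 above 0.1. Alternatives comprised 11 settings and leaving out each of the 12 arrays.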

Additional observations from a re-analysis of the deposited data

How the results depend on the processing

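Of the 17 genotype calls among the 9 genes, 14 were kept in all 23 alternatives. Over all 9 comparisons, 1681 of 1746 alternative values kept their side of the threshold. With an unchanged sign 56 lost a call and 7 gained one, and 2 turned, with a call in 1 of the 2 fits. A change of sign between values without a call was not counted, as for Meg3 in S5 minus WT, -0.14 in the fit reported and up to 0.25. The causes of these changes were not tested. Grb10 turned with the mean of the probe sets, to 0.14 in S5 minus WT and to 0.48 for growth hormone in S5 (adjusted p = 0.0917 and 0.0141). For the hormone in S5 MEFs a dim Grb10 probe set on its own gave 1.48, or 0.14 with the untreated group raised to 4. The bright one gave -0.06. Meg3 in S5 minus KO was lost in 18 of 23 alternatives, at adjusted p from 0.0501 to 0.538. Meg3 in KO minus WT was gained without untreated KO replicate 1 (0.35, adjusted p = 0.0368). With the mean of the probe sets, the genes called rose to 5 in KO minus WT, and were 2 with growth hormone in S5 MEFs, 1 in the difference of hormone effects between S5 and KO MEFs and 1 between S5 and WT MEFs, in both Peg3 (-0.44 and -0.34). With array weights 2 were called with the hormone in S5 MEFs. With the hormone in KO MEFs 0 were called when every probe set was fitted on its own, arrays were centred on the median, arrays were weighted, only the groups compared were fitted, genes needed a group mean of at least 4, or the replicate number was a block. With the hormone in WT MEFs the count was 1 with every probe set on its own, with that filter and with the block, and 0 with only the groups compared. Leaving out 1 array gave 7 to 8 of the 9 in S5 minus KO, 6 in S5 minus WT and 3 to 4 in KO minus WT. It gave 0 to 1 with the hormone in S5 and in KO MEFs and 0 to 2 in WT MEFs. With the replicate block 7 were called in S5 minus KO, Meg3 being lost (adjusted p = 0.0668). Besides this count and those with the hormone in KO and WT MEFs given above, the block changed no count of the 9 genes.

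Over all genes, the calls of 6945 in KO minus WT, 6762 in S5 minus KO and 8159 in S5 minus WT became 10973, 11254 and 13612 probe sets when each was fitted on its own. For the hormone in S5 MEFs the 1433 calls became 2390 probe sets, 2914 with array weights, 532 with only the groups compared, and 661, 682 and 552 without treated replicate 1, untreated replicate 1 and untreated replicate 2. In KO MEFs the 56 calls became 10 with weights, 0 with only the groups compared, 32 with the replicate block, 20 without either untreated S5 array and 140 without treated KO replicate 1. In WT MEFs 1092 became 266 with only the groups compared and 547 without treated WT replicate 2. The difference of hormone effects between KO and WT MEFs went to 125 with weights, 116 with only the groups compared, 150 without either untreated S5 array and 355 without untreated WT replicate 2, beside 231 in the fit reported. That between S5 and KO MEFs was 205 and became 358 probe sets or 114 genes with only the groups compared, and that between S5 and WT MEFs was 532 and became 827 with weights. Centring arrays on the median lowered the share of calls that were higher to 43.8 percent beside 54.5 percent in S5 minus KO, and to 32.2 percent beside 46.1 percent for the hormone in S5 MEFs.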

Other observations

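The gene lists nearest in function to the 9 held other changes between the preparations. All 6 other CDK inhibitor genes passed in S5 minus KO, 4 higher and 2 lower, against the 37.2 percent of all genes called. Cdkn2a, which encodes p16Ink4a and p19Arf, was highest in KO MEFs, as Cdkn1c was, at 9.90 ± 0.11 in S5, 11.78 ± 0.16 in KO and 9.62 ± 0.33 in WT MEFs (SD, n = 4 each), so S5 minus KO was -1.88 (limma adjusted p = 1.13e-05). Cdkn2c, which encodes p18Ink4c, was lowest in KO MEFs, at 10.07 ± 0.27, 7.24 ± 0.32 and 9.39 ± 0.32 in S5, KO and WT MEFs, so S5 minus KO was 2.83 (limma adjusted p = 5.14e-06). Of 14 genes of IGF and insulin signalling, 6 were higher and 5 lower in S5 than in KO MEFs, where 20.3 and 16.9 percent of all genes were. Igfbp5, an IGF-binding protein, stood at 2.30 in S5, 12.41 in KO and 10.52 in WT MEFs, at least 340-fold lower in S5 than in KO (limma adjusted p = 3.91e-10). Igf1 was 9.01-fold lower and Igfbp2 5.43-fold higher in S5 than in KO MEFs (limma adjusted p = 1.04e-05 and 9.72e-07).

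Igfbp3, the main IGF carrier of serum, responded to growth hormone in S5 MEFs, at 9.20 with the hormone against 4.71 without (22.4-fold higher, limma adjusted p = 2.98e-06). The treated and untreated means were 10.80 and 11.24 in KO MEFs and 12.36 and 12.16 in WT MEFs. The effect in S5 minus that in KO MEFs was 4.93 and minus that in WT MEFs 4.28 (limma adjusted p = 3.18e-05 and 1.58e-05). Igf1r, the IGF1 receptor, fell by 0.76 in S5 MEFs with the hormone (limma adjusted p = 0.0155).

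Of 12 genes that write, keep or erase DNA methylation, 4 were higher and 2 lower in S5 than in KO MEFs, again beside 20.3 and 16.9 percent of all genes. Dnmt3b, a de novo methyltransferase, was 1.02 higher and Tet2, which oxidises methylcytosine, 1.20 higher (limma adjusted p = 1.09e-05 and 0.000206). Uhrf1, which recruits the maintenance methyltransferase at replication, was lower (KO minus WT -1.89, limma adjusted p = 9.55e-06) in KO than in WT MEFs, with a mean of 11.21 in KO and 13.10 in WT MEFs, as were the proliferation genes, 15 of 15 of which were lower in KO MEFs.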
